A study of Rattus norvegicus with 6 samples.

Results

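The genes described here are 46 interferon-stimulated genes and their regulators, matched by symbol to the probe sets of a rat expression array. They were named from knowledge of the pathway, with earlier results of these data known. Of these, 42 were measured, by 59 probe sets, among 14217 measured genes in all; 41 matched by symbol and 1, Ddx58, through the name Rig1 that the array annotation gives it. Oasl2, Gbp5, Trim21 and Xaf1 are not analysed here. RNA on 6 arrays came from 2 clonal cell strains with a Fischer 344 background, both derived from tumours that grew after transformed rat cholangiocytes (BDEsp cells), the lining cells of bile ducts, were placed in the bile duct of young adult male rats. BDEsp-TDECC (TDECC) is a cholangiocarcinoma strain and BDEsp-TDESM (TDESM) a cancer-associated fibroblast strain described by overexpression of Acta2, with 3 arrays each. The labels give all 6 arrays the same 3-D collagen gel co-culture and the same TGF-beta inhibitors, SB 431542 and LY2157299, and do not say which cultures received them. Each strain is 1 clone. Whether the 3 arrays of a strain stand for independent cultures is not stated, and the p-values therefore reflect array-to-array spread that may be technical.

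Interferons are secreted proteins that warn cells of infection. Type I interferons bind the receptor chains Ifnar1 and Ifnar2, interferon gamma binds Ifngr1 and Ifngr2, and Jak kinases at these receptors activate Stat proteins. Complexes that hold Stat2 and Irf9 switch on genes that carry an interferon-stimulated response element, genes with a gamma-activated site respond to interferon gamma, and many of the products block viral entry, translation or RNA copying. Other interferon regulatory factors (Irf) induce interferon itself or hold basal levels of its targets.

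The interferon genes did not move as 1 block between the strains. In TDESM the membrane proteins Ifitm1, Ifitm2 and Ifitm3, the translation inhibitor Ifit2, the ubiquitin-like Isg15 and the factors Irf5 and Irf7 were higher, while Ifi44l, Irf8, Cmpk2, Dhx58, Bst2, Irf2, Trim25, Irf3 and, with calls that were lost when single arrays were left out, Gbp2, Mx1 and Irf1 were lower. Deposited values are on the log2 scale, so a difference of 1 is 2-fold; differences are TDESM minus TDECC, tested with limma over all 14217 genes, with Benjamini-Hochberg adjustment and a threshold of 0.05. Of 42 members, 9 (21.4%) were higher and 17 (40.5%) lower, against 22.1% higher and 20.6% lower among all genes. Either way, 61.9% of members passed, against 42.7% of all genes. With a difference of at least 1 as well, 7 were higher and 11 lower; the shares over all genes were 13.4% and 12.1%. The median difference over the members was -0.18, against 0.0033 over all genes, and the differences ran from -3.67 to 6.86. The strains had no overlapping values in 30 members (71.4%), against 53.6% of all genes.

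These directions are relative to arrays that were brought to equal distributions. Centred on poly-A control transcripts added during labelling, the median of all genes moved to -1.22. In that setting 4 members stayed higher, Ifitm1, Ifitm2, Ifitm3 and Ifit2, and 31 were lower, against 6.32% of all genes higher and 76.5% lower. Isg15 (0.54) and Irf7 (0.33) then kept their sign without passing, and the differences of Irf5 (-0.16), Ifi44 (-0.47) and Ifi35 (-0.30) turned negative. Such centring moves every gene on an array by the same amount, so its error is shared between genes. The calls in that setting are therefore not separate evidence for each gene. The poly-A controls averaged 7.2 to 7.6 on the TDECC arrays and 8.3 to 9.0 on the TDESM arrays. The cause of this shift was not tested.

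**Figure D1:**
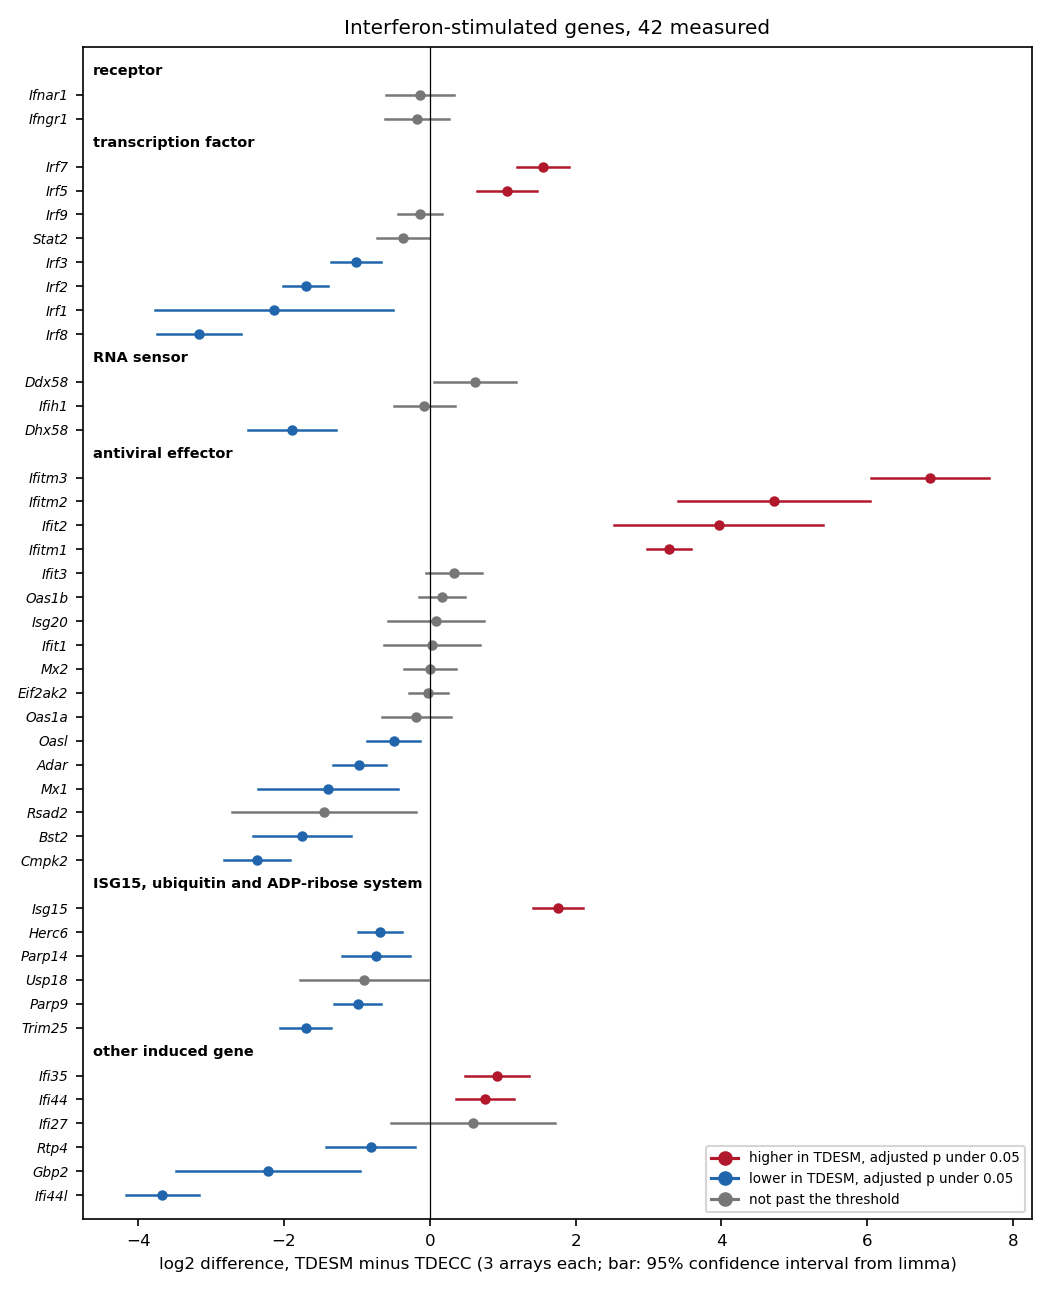
Log2 difference between strains (TDESM minus TDECC) for each of the 42 measured genes, by role; points are differences of means of 3 arrays each, bars are 95% confidence intervals of single genes from limma, and colour marks the call. Ifitm3 (6.86) and Ifi44l (-3.67) are the extremes, and the 9 higher and 17 lower calls fall in several roles.

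Markers of the labelled cell types separated the strains. All 8 measured epithelial markers were lower and all 10 fibroblast markers higher in TDESM. Of 13 leukocyte markers, which matter here because leukocytes express many of these genes at high level, 1 was higher and 0 lower, and their median level ran from 4.38 to 4.54 over the 6 arrays. Ptprc (CD45) read 3.52 to 3.88 over the 6 arrays. The 1 higher marker was Tcf4 (difference 2.77), and Cd14 stood at 8.73 in TDESM and 10.39 in TDECC without passing; both are named after their values were seen. The deposited table has no detection calls. As a guide, the median of 31 leukocyte, endothelial and hepatocyte markers averaged 4.29 over arrays, and 6 members lay below it in both strains: Ifih1, Ifit3, Mx2, Oas1a, Oas1b and Herc6. Another 5, Irf8, Dhx58, Mx1, Rsad2 and Ifi44l, had only their TDESM mean below it, and 2, Ifit2 and Ifitm1, only their TDECC mean. Where 1 mean lies below that guide, the size of the difference rests on a value that may not be above background. The guide is a median, so markers also lie above it. Members just over it, such as Ifit1 (4.44 in TDECC and 4.47 in TDESM), may not be above background either. Control probe sets for trpn, which was not added, averaged 3.05 to 3.23 over the arrays.

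The sequences just upstream of transcription starts show how widely the pathway's motifs are shared among genes that moved in opposite directions. RefSeq promoters (assembly GRCr8, 250 bases before to 50 after the start) were found for 31 of the 42 members. No entry was used for Irf2, Dhx58, Ddx58, Ifit1, Ifit2, Mx2, Adar, Ifitm1, Isg15, Usp18 and Rtp4. The core of the interferon-stimulated response element, searched on both strands as GAAA, any 2 bases and GAAA again, occurred in 16 of 31 members and in 3.92% of all 33469 promoters. It was found in 4 of 6 members that were higher in TDESM, 4 of 13 that were lower and 8 of 12 that did not pass. Genes of all 3 kinds are shown, with matches in capitals. Ifitm3, Bst2 and Ifi44l also hold a second motif, described next. In Bst2 only 1 of its overlapping matches is in capitals. Ifi44l has a further match of the response element at -91 and the second motif at -247, both outside its printed stretch.
Ifitm3 (chr1:205541759-205542008, minus strand): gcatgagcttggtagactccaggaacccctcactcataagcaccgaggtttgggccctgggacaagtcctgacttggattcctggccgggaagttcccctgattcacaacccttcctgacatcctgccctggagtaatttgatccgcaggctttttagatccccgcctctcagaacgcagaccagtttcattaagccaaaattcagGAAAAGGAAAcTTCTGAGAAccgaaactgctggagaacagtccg
Ifitm2 (chr1:205482357-205482396, minus strand): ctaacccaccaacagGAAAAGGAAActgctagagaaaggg
Irf7 (chr1:205800068-205800107, minus strand): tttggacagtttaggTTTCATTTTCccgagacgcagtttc
Gbp2 (chr2:234005681-234005720, plus strand): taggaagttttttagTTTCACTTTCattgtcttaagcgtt
Ifi44l (chr2:243328649-243328688, plus strand): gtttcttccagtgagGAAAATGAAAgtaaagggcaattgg
Bst2 (chr16:18255074-18255113, minus strand): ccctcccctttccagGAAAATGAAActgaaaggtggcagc
Eif2ak2 (chr6:21941123-21941153, plus strand): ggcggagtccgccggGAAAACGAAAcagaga
Isg20 (chr1:142239952-142239991, plus strand): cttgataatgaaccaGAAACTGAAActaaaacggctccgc
The first 3 genes were higher in TDESM, the next 3 lower, and the last 2 did not pass. Ifitm2 and Ifitm3 carry the same 10 letters, GAAAAGGAAA, at -33 and -44 from their starts. A match is a run of letters and not a measured binding site.

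The gamma-activated site, searched as TTCNNNGAA, which reads the same on both strands, occurred in 9 of 31 members and in 8.87% of all promoters. It was found in 1 of 6 higher members, Ifitm3, in 5 of 13 lower members and in 3 of 12 that did not pass. Shown are 2 factors that were lower in TDESM, Irf1 and Irf8, and 1 that did not pass, Irf9, with this motif in capitals.
Irf1 (chr10:38417685-38417934, plus strand): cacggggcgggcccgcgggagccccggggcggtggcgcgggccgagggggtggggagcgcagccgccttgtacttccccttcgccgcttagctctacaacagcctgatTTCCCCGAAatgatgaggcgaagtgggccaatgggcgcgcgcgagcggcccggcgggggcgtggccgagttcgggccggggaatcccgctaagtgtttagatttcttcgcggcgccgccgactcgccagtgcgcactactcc
Irf8 (chr19:65699089-65699127, plus strand): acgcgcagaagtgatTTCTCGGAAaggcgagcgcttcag
Irf9 (chr15:33065722-33065760, plus strand): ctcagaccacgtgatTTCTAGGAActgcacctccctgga
Irf8 has a further match at -161, which runs past the end of the printed stretch.

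Receptors came first in the pathway and showed no call by the probe set that stands for each gene, the one with the highest mean. Ifngr1, the ligand-binding chain for interferon gamma, stood at 9.29 ± 0.11 in TDESM and 9.47 ± 0.33 in TDECC (SD, n = 3 each; difference -0.17, 95% confidence interval -0.61 to 0.26). Ifnar1, a chain of the type I receptor, differed by -0.13 (95% confidence interval -0.60 to 0.33) by that probe set, but the gene has 6. The other 5 differed by 0.52 to 1.94, and 4 of them passed as higher in TDESM. With the mean of all 6 the difference was 0.81 (adjusted p = 0.00522), so the direction for Ifnar1 depends on the probe sets used.

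**Figure D2:**
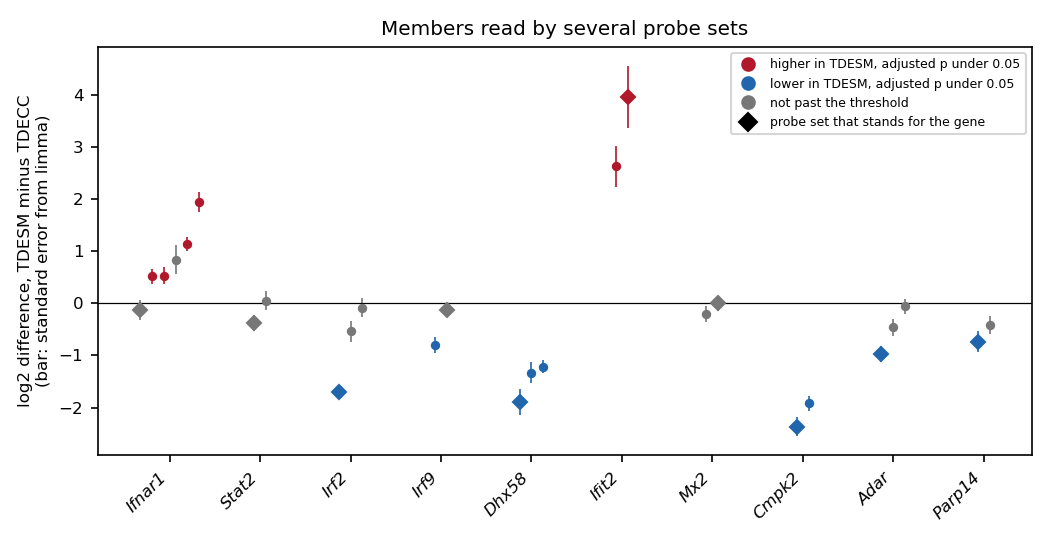
Log2 difference between strains for each probe set of the 10 members with several; diamonds mark the probe set that stands for the gene, bars are standard errors from limma, and colour marks the call over all probe sets. The Ifnar1 probe sets run from -0.13 to 1.94, while both Ifit2 probe sets are positive (2.63 and 3.96) and all 3 of Dhx58 negative (-1.22 to -1.89).

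Among 8 transcription factors, 2 were higher and 4 lower in TDESM. Irf7, which amplifies type I interferon production, read 6.02, 6.29 and 6.42 on the TDECC arrays and 7.84, 7.63 and 7.90 on the TDESM arrays. The groups did not overlap, and the difference was 1.55 (SE 0.15, adjusted p = 1.99e-04). Irf5, a factor downstream of Toll-like receptors, read 5.91, 5.38 and 5.60 in TDECC and 6.54, 6.66 and 6.88 in TDESM, again without overlap (1.06, SE 0.17, adjusted p = 0.00240).

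Irf8, best known from myeloid cells and induced by interferon gamma, had the widest gap of the factors. It read 7.01, 7.87 and 7.07 in TDECC and 4.02, 4.31 and 4.12 in TDESM, a difference of -3.17 (SE 0.24, adjusted p = 5.98e-05), and every TDESM value lay far below every TDECC value. Irf2, which competes with Irf1 for the same sites, read 8.06, 8.39 and 8.36 against 6.58, 6.58 and 6.54 in TDESM (-1.70, SE 0.13), with hardly any spread in TDESM. Its other 2 probe sets, both dimmer, differed by -0.54 and -0.08 without passing, and the mean of all 3 gave -0.78. Irf3, the constitutive factor that starts interferon transcription after sensing of viral RNA or DNA, read 9.46, 9.39 and 9.08 in TDECC and 8.17, 8.31 and 8.41 in TDESM (-1.01, SE 0.15, adjusted p = 0.00135).

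Irf1, a primary target of interferon gamma and the gene with the gamma-activated match shown above, read 8.59, 9.46 and 11.58 in TDECC and 7.58, 7.67 and 7.97 in TDESM. All TDECC values exceeded all TDESM values, but TDECC replicate 3 stood far above the other TDECC arrays. The difference of -2.14 (SE 0.69) passed narrowly, with adjusted p = 0.0430. It became -1.29 (adjusted p = 0.0136) without TDECC replicate 3, and the call was lost without TDECC replicate 2 (0.0636), without any 1 TDESM replicate (0.101 to 0.120), with cyclic loess (0.0539) and with trend and robust eBayes. Stat2 and Irf9, which act in 1 complex, did not pass. Stat2 stood at 7.87 ± 0.23 in TDESM and 8.24 ± 0.10 in TDECC (95% confidence interval of the difference -0.73 to -0.02, adjusted p = 0.0876). It passed as lower with housekeeping centring (-0.58, adjusted p = 0.0125) and without TDESM replicate 3 (-0.50, adjusted p = 0.0365). The dimmer probe set of Stat2 differed by 0.05 without passing, and the mean of both gave -0.16 (adjusted p = 0.449). Irf9 differed by -0.13 (95% confidence interval -0.43 to 0.17), but its dimmer probe set differed by -0.80 (adjusted p = 0.00445).

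Of 3 sensors of viral RNA in the cytoplasm, 1 was lower. Dhx58 (LGP2), a regulator of the other sensors, read 5.78, 4.78 and 5.50 in TDECC and 3.37, 3.43 and 3.58 in TDESM (-1.89, SE 0.25, adjusted p = 9.37e-04). The strains did not overlap on any of its 3 probe sets. Ddx58 (RIG-I) stood at 6.78 ± 0.33 in TDESM and 6.16 ± 0.35 in TDECC (0.62, 95% confidence interval 0.06 to 1.18, adjusted p = 0.0763). Ifih1 (MDA5) stood at 3.55 and 3.63, both below the guide level.

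Of 17 antiviral effectors, 4 were higher and 5 lower in TDESM. The Ifitm proteins sit in membranes and hinder the fusion of enveloped viruses, and their genes gave the largest differences among the members. Ifitm3 read 6.03, 4.71 and 5.92 on the TDECC arrays and 12.39, 12.34 and 12.51 on the TDESM arrays, a difference of 6.86 (SE 0.34), which is 116-fold. Ifitm2 read 6.23, 7.80 and 8.68 in TDECC against 12.29, 12.27 and 12.31 in TDESM (4.72, SE 0.56), and Ifitm1 read 3.33, 3.21 and 3.40 against 6.61, 6.44 and 6.72 (3.28, SE 0.13), with its TDECC mean below the guide level. Leaving out 1 TDECC array moved the Ifitm2 difference between 4.05, without replicate 1, and 5.28, without replicate 3. In all 3 the groups were far apart, with adjusted p between 1.9e-06 and 4.95e-04. These genes are close copies, so their probe sets may share signal, which was not tested. Within TDECC, Ifitm2 was highest on replicate 3 and lowest on replicate 1. Ifitm3 was highest on replicate 1 and lowest on replicate 2.

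The Ifit proteins bind foreign RNA and the translation machinery, and 1 of the 3 genes measured passed. Ifit2 read 4.02, 5.33 and 2.64 in TDECC and 8.05, 8.03 and 7.79 in TDESM, a difference of 3.96 (SE 0.60, adjusted p = 0.00174). TDECC arrays spread widely without reaching TDESM. The difference was 4.63 without TDECC replicate 2 and 3.28 without TDECC replicate 3. Ifit1 stood at 4.47 ± 0.38 in TDESM and 4.44 ± 0.45 in TDECC (0.03, 95% confidence interval -0.63 to 0.69), and Ifit3 at 3.59 ± 0.24 and 3.26 ± 0.15 (0.33, 95% confidence interval -0.05 to 0.71), and neither passed. The Ifit1 means lay just above the guide level and the Ifit3 means below it.

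The effectors that were lower in TDESM were Cmpk2, Bst2, Mx1, Adar and Oasl. Cmpk2, a mitochondrial nucleotide kinase, read 7.40, 7.36 and 7.90 in TDECC and 5.20, 5.38 and 4.98 in TDESM (-2.37, SE 0.19, adjusted p = 7.38e-05). Its second probe set agreed in direction, at -1.92. Bst2 (tetherin), which holds budding virus at the cell surface, read 7.63, 7.70 and 6.64 against 5.50, 5.64 and 5.57 (-1.75, SE 0.28, adjusted p = 0.00223). The TDECC value on replicate 3 was the lowest of the 3 here, unlike that of Irf1.

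Mx1, a dynamin-like GTPase that traps viral particles, read 4.11, 5.74 and 4.53 in TDECC and 3.39, 3.66 and 3.14 in TDESM (-1.40, SE 0.40, adjusted p = 0.0283). That difference was -0.92 without TDECC replicate 2, and the call was lost without any 1 TDESM replicate (adjusted p 0.0604 to 0.104). Adar, which edits adenosine in double-stranded RNA, differed by -0.97 by its brightest probe set, and by -0.46 and -0.06 by the other 2, which did not pass. Oasl, of the oligoadenylate synthetase family, differed by -0.50, and its call was also lost without any 1 TDESM replicate. Oasl read 6.05 on every TDESM array, so its difference did not change in those runs. Fewer genes passed over all genes in them as well (4605 to 4835, against 6065 with every array). Rsad2 (viperin) did not pass (-1.45, 95% confidence interval -2.71 to -0.19, adjusted p = 0.0664). It read 5.40, 4.67 and 6.97 in TDECC and 4.22, 4.39 and 4.09 in TDESM, so the groups did not overlap but TDECC replicate 3 stood apart. Rsad2 passed without TDECC replicate 2 (-1.95, adjusted p = 0.0145) or replicate 3 (-0.80, adjusted p = 0.0403). Eif2ak2 (PKR), a kinase that halts translation, stood at 7.10 ± 0.08 in TDESM and 7.12 ± 0.06 in TDECC, with a narrow interval for the difference, -0.29 to 0.25. Isg20, an exonuclease, stood at 8.58 ± 0.14 and 8.49 ± 0.57. Mx2, Oas1a and Oas1b had means between 3.07 and 3.84 in both strains and did not pass.

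**Figure D3:**
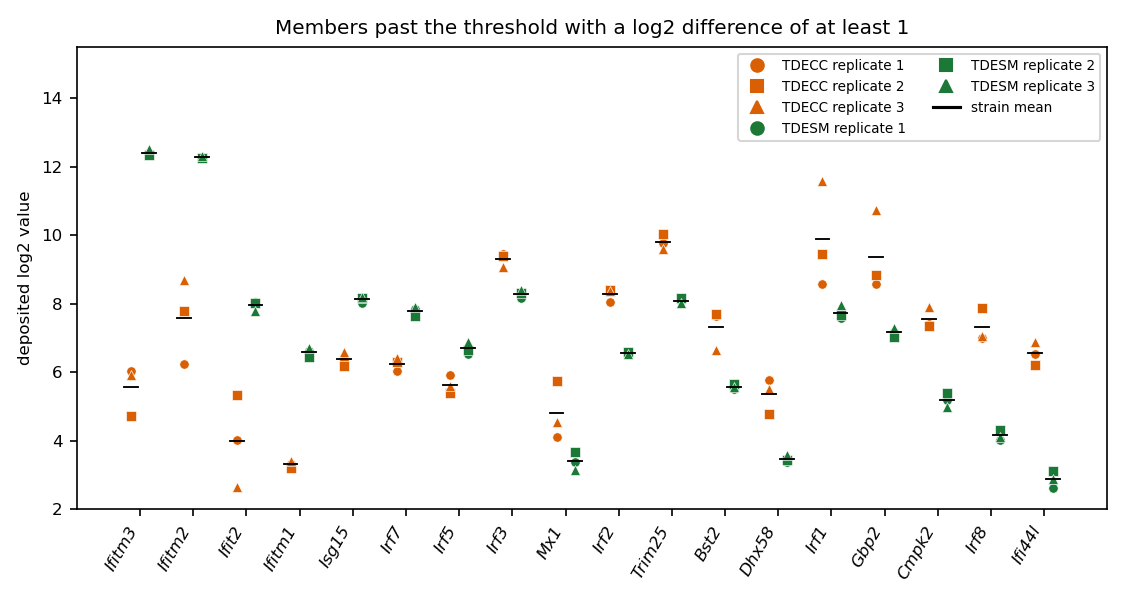
Deposited log2 value on each of the 6 arrays for the 18 members past the threshold with a difference of at least 1, ordered by that difference; marker shape gives the replicate, colour the strain and the black line the mean of 3. TDESM arrays lie close together, as for Ifitm2 (12.27 to 12.31), and TDECC arrays spread more, as for Irf1 (8.59 to 11.58).

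Of the 6 measured genes of the Isg15, ubiquitin and ADP-ribose systems, 1 was higher and 4 were lower in TDESM. Isg15, a ubiquitin-like protein attached to other proteins, read 6.37, 6.17 and 6.60 in TDECC and 8.03, 8.18 and 8.20 in TDESM (1.76, SE 0.15, adjusted p = 8.95e-05), with no overlap. Trim25, a ubiquitin ligase that activates RIG-I, read 9.76, 10.04 and 9.59 against 8.09, 8.18 and 8.01 in TDESM (-1.70, SE 0.15, adjusted p = 1.14e-04). Herc6, a ligase of the HERC family, differed by -0.68, with both means below the guide level. The mono-ADP-ribosyltransferase genes Parp9 and Parp14 differed by -0.99 and -0.74, and the Parp14 call held without TDECC replicate 2 but was lost without any other 1 array (adjusted p 0.0510 to 0.0853). Usp18, which removes Isg15 and dampens receptor signalling, stood at 4.98 ± 0.36 in TDESM and 5.87 ± 0.72 in TDECC (-0.90, adjusted p = 0.0947, not passed). The Usp18 difference was -1.17 without TDECC replicate 3 (adjusted p = 0.0473), -1.10 with housekeeping centring (adjusted p = 0.0339) and -0.49 without TDECC replicate 1 (adjusted p = 0.143).

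Of 6 other induced genes, 2 were higher and 3 lower. Ifi44l and Ifi44, neighbouring genes of 1 family, had opposite signs. Ifi44l read 6.53, 6.22 and 6.89 in TDECC and 2.63, 3.12 and 2.89 in TDESM (-3.67, SE 0.21), a TDESM mean below the guide level. Ifi44 stood at 6.79 ± 0.10 in TDESM and 6.04 ± 0.28 in TDECC (0.75, adjusted p = 0.00998), a sign that turned when centred on the poly-A controls. Ifi35, a partner of Nmi, differed by 0.92 (adjusted p = 0.00638) and likewise turned there. Gbp2, a GTPase that attacks the vacuoles of intracellular microbes, read 8.57, 8.83 and 10.73 against 7.17, 7.03 and 7.28 (-2.22, SE 0.53, adjusted p = 0.0135). Gbp2 stood at -1.54 (adjusted p = 5.00e-04) without TDECC replicate 3, and leaving out TDESM replicate 2 ended its call (adjusted p = 0.0534). Rtp4, a chaperone of receptors, differed by -0.81 (adjusted p = 0.0410), by -0.52 without TDECC replicate 3, and lost its call without any 1 TDESM replicate. Ifi27 was high and uneven in TDECC (9.89, 11.99 and 10.87) and even in TDESM (11.51, 11.60 and 11.42), and the groups overlapped. Its difference of 0.59 (adjusted p = 0.370) was 0.08 without TDECC replicate 1 and passed at 1.13 without TDECC replicate 2 (adjusted p = 0.0229).

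Members varied more between TDECC arrays than between TDESM arrays. The median SD over members was 0.30 in TDECC and 0.13 in TDESM, against 0.24 and 0.12 over all genes. In TDECC 10 of 42 members (23.8%, against 13.6% of all genes) ranged over more than 1, and in TDESM 0 did. TDECC replicate 3 was the highest TDECC array for 21 of the 40 members with a single highest array (52.5%, against 30.6% of all genes). That count was 13 among the 27 members left after dropping the dimmest 33.3% of genes, and 11 with poly-A centring. The shares over all genes were not counted in these settings. Poly-A centring lowers replicate 3 against the other TDECC arrays for every gene, since the controls were brightest on that array. The members did not follow 1 array: Irf1, Gbp2, Rsad2 and Ifitm2 were highest on replicate 3, Ifit2, Ifi27 and Mx1 on replicate 2, and Usp18 on replicate 1. Leukocyte markers had medians of 4.38, 4.49 and 4.52 on TDECC replicates 1 to 3, the poly-A controls means of 7.22, 7.29 and 7.65, and the 3' minus 5' difference of the beta-actin control was 1.18, 1.46 and 0.77. The part of these in the spread was not tested.

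**Figure D4:**
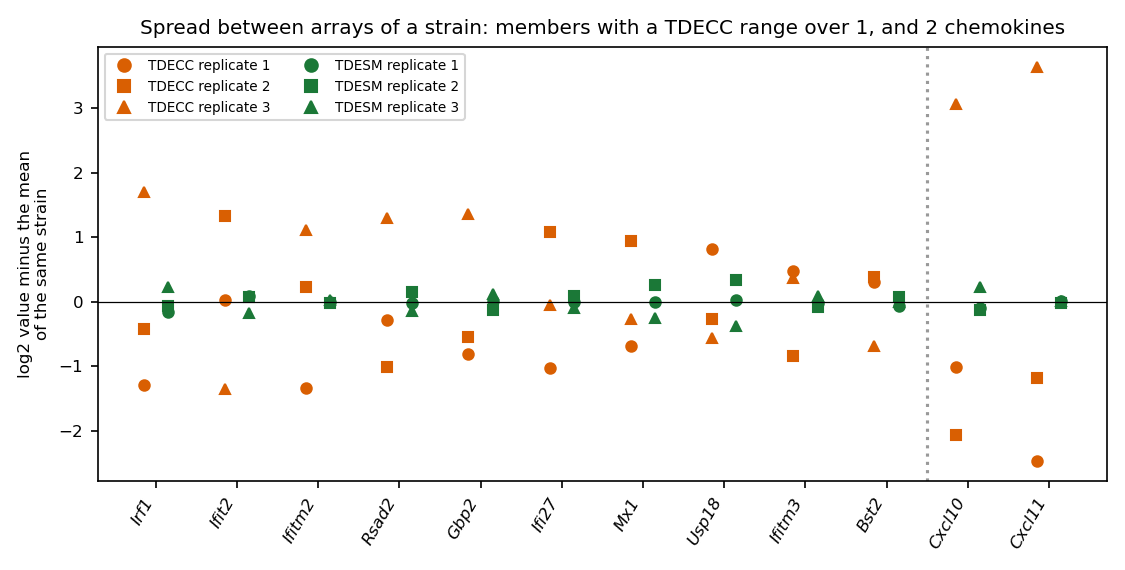
Log2 value of each array minus the mean of its strain, for the 10 members with a TDECC range over 1 and, right of the dotted line, the chemokines Cxcl10 and Cxcl11; shape gives the replicate and colour the strain. Orange triangles (TDECC replicate 3) are highest for Irf1, Gbp2, Rsad2 and Ifitm2 and lowest for Ifit2, Usp18 and Bst2.

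Of 80 further genes of the pathway, none of them a member, 62 were measured; 11 were higher and 18 lower in TDESM (17.7% and 29.0%, against 22.1% and 20.6% of all genes). Either way 46.8% passed, close to the 42.7% of all genes. Ifnb1, Ifnk and Ifng, the measured ligands, stood between 2.92 and 3.97 in both strains and none passed. Ifngr2, the second chain for interferon gamma, read 5.71, 7.34 and 8.0 in TDECC and 8.94, 8.85 and 9.11 in TDESM (1.95, SE 0.53, adjusted p = 0.0228). Ifnlr1, the receptor chain for interferon lambda in epithelia, stood at 5.92 ± 0.30 in TDESM and 7.67 ± 0.19 in TDECC (-1.75, adjusted p = 3.06e-04). Ifnar2 stood at 7.69 in TDESM and 7.70 in TDECC, with a 95% confidence interval of -0.34 to 0.34.

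Among the receptor kinases Jak1 did not pass (11.03 ± 0.03 in TDESM, 10.86 ± 0.10 in TDECC). Jak2 was lower, at 6.69 in TDESM against 7.96 (-1.27, SE 0.13, adjusted p = 2.82e-04), and Tyk2 differed by -0.69 (adjusted p = 0.0422). Ticam1 and Myd88, adaptors of Toll-like receptors, were higher by 1.66 and 1.01. Ptpn6 (SHP-1), a phosphatase that dampens Jak signalling, differed by -1.80, and Socs1, an inhibitor of Jak kinases, stood at 5.55 and 5.24 without passing.

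Of 37 other interferon-induced genes in that set, 5 were higher and 12 lower. Among the widest gaps were those of Gbp4, a relative of Gbp2, at 2.92 ± 0.18 in TDESM and 7.46 ± 0.61 in TDECC (-4.54, with the TDESM mean below the guide level), of the immunoproteasome subunit Psmb8 (-4.37) and of Plscr1, a phospholipid scramblase (-3.10). Higher were Ly6e, a surface protein that limits coronavirus entry (2.23, with the TDECC mean below the guide level), Lgals3bp (1.74) and Sp110 (1.40). Centred on the poly-A controls, 1 of the 62 genes was higher and 50 were lower, where 76.5% of all genes were lower. The chemokines Cxcl10 and Cxcl11, named after their values were seen, did not pass: Cxcl10 read 7.69, 6.64 and 11.76 in TDECC and 7.0, 6.97 and 7.33 in TDESM. Cxcl11 read 4.07, 5.36 and 10.17 in TDECC and 3.93, 3.90 and 3.93 in TDESM. Both were far higher on TDECC replicate 3 than on any other array.

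**Figure D5:**
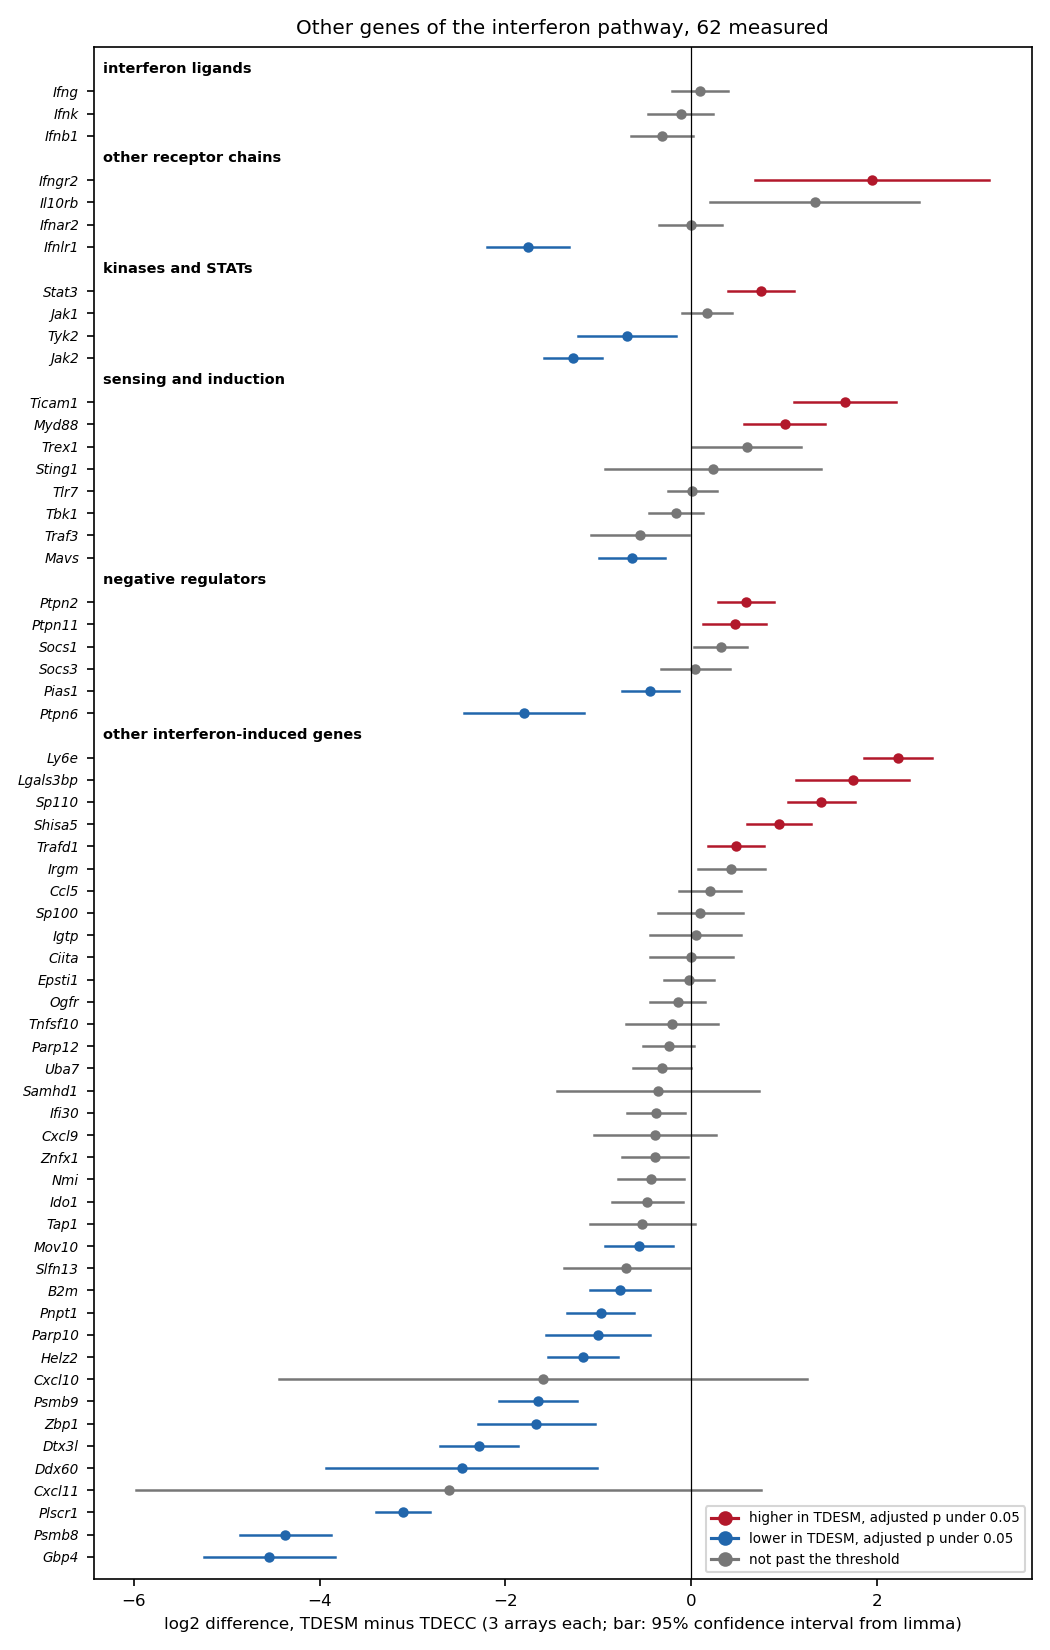
Log2 difference between strains (TDESM minus TDECC) for the 62 further pathway genes, by list; points are differences of means of 3 arrays each, bars are 95% confidence intervals of single genes from limma, and colour marks the call. Gbp4 (-4.54) and Ly6e (2.23) are the extremes, and Cxcl10 and Cxcl11 have the widest intervals.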

How the data were processed

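RNA of 6 arrays was compared, 3 of BDEsp-TDECC and 3 of BDEsp-TDESM, grouped by sample title. The authors deposited log2 values, and the submitters' processing notes name RMA without a version. RMA usually equalises array distributions, so a difference in total mRNA would not show. Of 31099 probe sets, 20826 named 1 gene symbol in the platform annotation. Where a gene had several, the probe set brightest on average over the 6 arrays stood for it. Differences were tested with limma 3.58.1 in R 4.3.3 (lmFit and eBayes, two-sided, Benjamini-Hochberg over all 14217 genes); confidence intervals are not adjusted. The number of arrays limits the precision, and an exact permutation test of 3 against 3 cannot go below 0.1. In simulated data with 14217 genes, 100 were altered by a log2 of 1 and 100 by a log2 of 2. There limma called 51% of the first and 80% of the second. Far more genes, 6065, passed in the real data, which makes the Benjamini-Hochberg cut-off there less strict. The simulated shares therefore do not carry over to these data.

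The members and all lists were chosen with earlier results of these data known. Members past the threshold with a difference of at least 1 are given by array, other members by means, range or difference. Rsad2 and Ifi27, which did not pass, are also given by array. Pathway genes are named by the same limit, up to 3 each way per list, plus a few fixed ones. Alternatives were cyclic loess, centring on 16 housekeeping genes or 24 poly-A control probe sets, dropping the dimmest 33.3% of genes, averaging a gene's probe sets or testing each on its own, trend and robust eBayes, the replicate number as a block, a minimum difference of 1 and each array left out. The labels name no pairing of arrays, so the main fit had no block. Same-numbered arrays did not deviate together (correlations of -0.07, 0.02 and -0.14). Promoters are from RefSeq.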

Additional observations from a re-analysis of the deposited data

How the results depend on the processing

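Most calls among the members were kept in each setting in which they were tested. Fewer were kept when a TDESM array was left out, with poly-A centring or with a minimum difference of 1. Of the 26 members past the threshold, 25 kept their call and direction with cyclic loess and with trend and robust eBayes (Irf1 lost it in both), 24 with the replicate number as a block (Oasl and Rtp4 lost it, adjusted p = 0.0750 and 0.0654; 9 higher and 15 lower), and 26 with housekeeping centring or the mean of all probe sets. Leaving out 1 array at a time gave 9 to 10 members higher and 11 to 18 lower, with the fewest, 11, without TDESM replicate 2. Lower calls over all genes also fell in that setting, from 2930 to 2131. Of the 26 calls, 25 were kept without each TDECC array in turn, and 21, 20 and 21 without TDESM replicates 1, 2 and 3. The calls lost without a TDESM array were all lower ones. Calls over all genes fell from 6065 to between 4605 and 4835 in the runs without a TDESM array. With a difference of at least 1 required, 3625 genes passed, 1908 higher and 1717 lower. Among the members 7 were then higher and 11 lower, and among the pathway genes 6 were higher and 12 lower. Without the dimmest 33.3% of genes 11 of 27 members tested were lower, against 2623 of 9477 genes. The count fell since 6 of the 17 lower members (and Ifitm1, a higher one) were no longer tested. TDECC replicate 3 was highest for 13 members in that setting. Housekeeping centring moved the median of all genes to -0.20 and called 29 pathway genes lower, while lower calls over all genes rose from 2930 to 4182. Poly-A centring called 11771 genes, of which 7.63% were higher (51.7% in the deposited scaling and 37.7% with housekeeping centring). Calls in that setting share the error of the centring between genes. There the member median was -1.40, 4 members passed as higher and 31 as lower, and 1 pathway gene was higher and 50 lower. Of the 26 member calls, 21 were kept. TDECC replicate 3 was highest for 11 members, but this centring lowers that array for every gene. Signs turned there for Irf5 (-0.16), Ifi44 (-0.47), Ifi35 (-0.30), Ifit1 (-1.19), Ifit3 (-0.89), Oas1b (-1.05), Isg20 (-1.13), Ddx58 (-0.60) and Ifi27 (-0.63); the last 2 passed in neither setting. The mean of all probe sets turned Ifnar1 to 0.81. The cause of the shift under poly-A centring was not tested.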

Other observations

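Ranking all 14217 genes by how far 1 TDECC array lay above the mean of the other 2 placed interferon-pathway genes near the top for replicate 3. Cxcl11, a chemokine that attracts T cells, ranked 2 with an excess of 5.46, and Cxcl10 ranked 4 with 4.60. Among the members Irf1 ranked 23 (2.56), Gbp2 36 (2.03), Rsad2 45 (1.94) and Ifitm2 71 (1.67), and the adaptor Sting1 ranked 60 (1.72). The 100 genes of 14217 with the largest excess on replicate 3 held 4 of the 42 members and 4 of the 62 further pathway genes. For replicates 1 and 2 both counts were 0. Only excess was ranked. Replicate 3 was the lowest TDECC array for 7 of the 41 members with a single lowest array (17.1%, against 35.7% of all genes). Ifit2, Usp18 and Bst2 were among them. Other genes in the first 10 for replicate 3 were Cd69, Nr4a1, Depp1, Agr2, Atf3, Egr2, Cxcl2 and Ccl20. This ranking was made after the values were seen, and nothing in the labels sets that array apart.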
